A study of Columba livia with 19 samples.

Results

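By the RNA counts of the collars of their growing feathers, 19 domestic rock pigeons (Columba livia) were divided into a set of 7 birds and a set of 12 birds. In the 7 low dosage birds a block of genes stood well below its level in the 12 high dosage birds. All 19 birds of the series belong to one or the other set. The low dosage set holds recessive red birds 3, 6 and 7 and wild-type birds 3, 4, 00 and 23. The high dosage set holds recessive red birds 1, 4, 5, 11, 12 and 14 and wild-type birds 1, 2, 20, 21, 22 and 24. The sets were proposed as possible females and possible males. No label gives the sex of a bird, and the gene identifiers used here are paired with no gene names, so no sex-linked gene could be looked up by name and the sets are called by their dosage only.

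The birds were chosen for each set by the levels of this block of genes, read from these same counts. The difference between them is therefore given as a description, with values bird by bird and with no p-value. Tests are given only for what the labels define (phenotype and batch), for the library measures, and for whether the difference between the sets itself varies with phenotype or batch.

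Birds have a ZW system of sex chromosomes: females carry a Z and a W, males carry a pair of Z chromosomes. Unlike mammals, birds do not silence a whole sex chromosome, and the lower Z copy number of females is made up for gene by gene and in part, so that many Z genes have more transcript in males in most tissues. The Z also holds some of the pigment genes of pigeons and other birds.

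The study compared recessive red birds, whose feathers carry red to yellow pheomelanin and which carry recessive red alleles (e1 or e2) that act on SOX10, a transcription factor gene of melanocytes, with wild-type birds, whose feathers carry dark eumelanin. RNA came from the collar, the ring of growing epidermis at the base of the feather that also holds the melanocytes, after 9 to 10 days of regrowth. Among the low dosage birds, 1 was an e1 homozygote of batch 1, 1 an e1 homozygote of batch 2, 1 an e2 homozygote of batch 2, and 2 and 2 were wild type of batch 1 and batch 2. Among the high dosage birds, 2 were e1 homozygotes of batch 1, 2 e1 homozygotes of batch 2, 2 e2 homozygotes of batch 2, 2 were wild type of batch 1, 3 wild type of batch 2, and 1 was the only wild-type/e1 heterozygote (bird 22, batch 2), whose labelled phenotype is wild type. The libraries of batch 1 were sequenced in 2017 and the birds of batch 2 were collected in 2020. The labels give no age or strain, and no marker of the collar or of melanocytes could be checked, because the identifiers have no names here.

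Both sets held birds of each phenotype and batch. The low dosage set took 3 of the 9 recessive red and 4 of the 10 wild-type birds, and 4 of the 12 birds of batch 2 and 3 of the 7 birds of batch 1 (Fisher's exact test, 2-sided, p = 1 for phenotype and p = 1 for batch). The libraries had 18802166 ± 3156888 counts in low dosage birds (SD, n = 7) and 16868564 ± 2027915 counts in high dosage birds (SD, n = 12), and 14157 to 14385 genes were detected in low dosage birds against 14107 to 14370 in high dosage birds. The share of counts in the 100 highest genes was 25.5 ± 4.37% in low dosage birds (SD, n = 7) and 24.4 ± 4.20% in high dosage birds (SD, n = 12). For none of these 3 measures was a difference between the sets found (2-sided exact permutation of birds within batch and phenotype; adjusted p = 0.339 for total counts, 0.581 for detected genes and 0.847 for the share of the highest genes, where 4050 arrangements allow a p of 0.000247).

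Of 12839 genes tested, 186 were lower in every low dosage bird than in every high dosage bird of the same batch, in batch 1 and in batch 2 alike. They are called separated genes here and make up 1.45% of the genes tested. Only 1 gene was separated the other way, 0.00779% of the genes tested. In 133 genes (1.04%) all 7 low dosage birds were below all 12 high dosage birds with the batches pooled, and no gene was above in that way. Since the sets were read from these counts, the shares are given as a measure of how much of the transcriptome the sets divide and nothing more is read from them.

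Most separated genes stood near 0.5 of their level in the high dosage birds. The fitted log2 fold change, low dosage over high dosage birds with batch and phenotype as terms, had a median of -0.92 over the 186 genes, a ratio of 0.530, and the middle 50% of them had ratios between 0.501 and 0.579. Over all 12839 tested genes the median log2 fold change was 0.01. The separated genes ranged from a ratio of 0.316 to one of 0.900. A lack of overlap in both batches favours genes with large differences, so these ratios follow in part from the choice. They were not confined to rare or abundant transcripts, with a median level of 5.22 log2 CPM (CPM, counts scaled to library size with TMM factors) against 4.72 log2 CPM over all genes tested, and a span of -0.67 to 11.27. Together they took 0.882 ± 0.0428% of the counts of low dosage birds (SD, n = 7) and 1.62 ± 0.0729% of the counts of high dosage birds (SD, n = 12). The sets did not overlap in this share, which follows largely from how the genes were chosen. These are bulk collars, in which fewer cells of a type and less RNA per cell cannot be told apart.

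**Figure D1:**
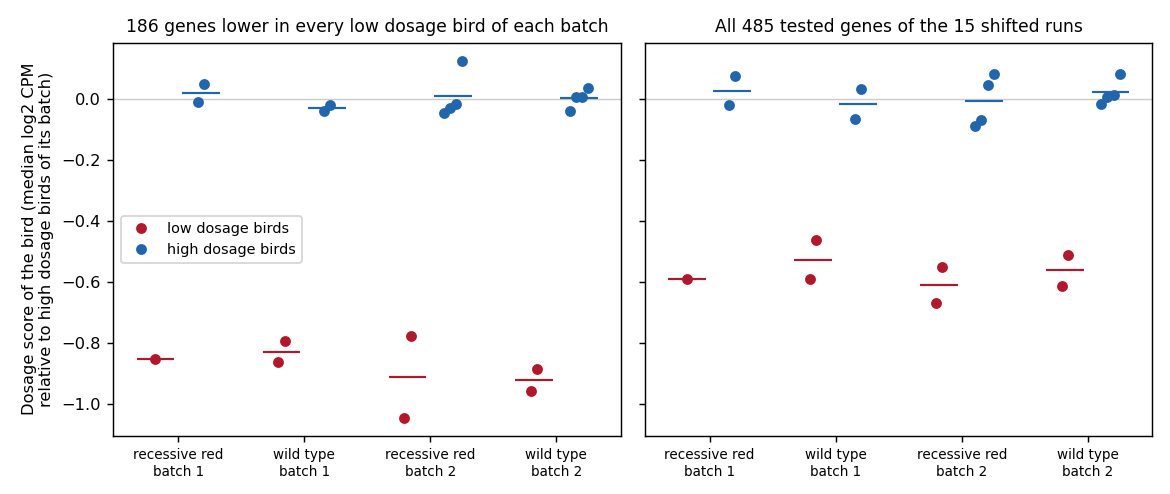
Dosage score of each bird, the median log2 CPM over genes relative to the high dosage birds of the same batch, for the 186 separated genes (left) and for all 485 tested genes of the 15 shifted runs described below (right). Points are birds, low dosage (red) left of high dosage (blue) within each phenotype and batch, and lines are means. In both panels every low dosage bird lies below every high dosage bird, and no bird lies between. The birds and the genes were chosen by this difference.

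A dosage score per bird gives the size of the difference bird by bird. Birds and genes were both chosen by this difference. The lack of overlap within each batch, and in part the gap, follow from that choice. It is the median over the 186 genes of a bird's log2 CPM relative to the mean of the high dosage birds of its batch, so that 0 is the high level and -1 a ratio of 0.5. Low dosage birds averaged -0.88 ± 0.09 (SD, n = 7), with a lowest bird at -1.05, a median of -0.86 and a highest bird at -0.78. High dosage birds averaged 0.00 ± 0.05 (SD, n = 12), with a lowest bird at -0.05, a median of -0.01 and a highest bird at 0.12. The birds nearest to the boundary were recessive red bird 6 of the low dosage set, at -0.78, and recessive red bird 14 of the high dosage set, at -0.05. The gap of 0.73 between them was larger than the whole range within either set. Over the 12354 tested genes outside the runs described next, the same score lay between 0.01 and 0.03 in low dosage birds and between -0.01 and 0.02 in high dosage birds.

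The separated genes were bunched in the order of the deposited table. Whether this order played a part when the sets were read from the counts is not stated. The table lists genes in stretches in which the identifier number goes up by 1 from row to row. Whether these runs follow position in the genome is not given in the sources used here. Of the 186 separated genes, 94 (50.5%) had another separated gene as the nearest tested gene before or after them in their run, against 183 of the other 12653 tested genes (1.45%). There were 317 runs with at least 10 tested genes. In 15 of them the median log2 fold change between the sets lay between -0.77 and -0.31, and in the other 302 it lay between -0.12 and 0.21. No run fell between -0.31 and -0.12, and the 15 are called shifted runs, a name and a boundary (-0.25) chosen after these values were seen.

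**Figure D2:**
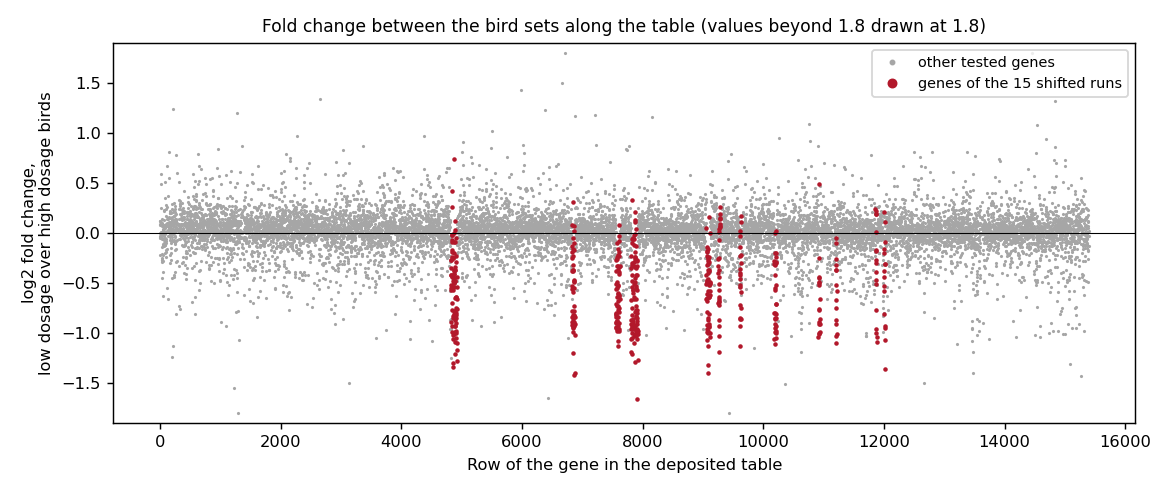
Log2 fold change, low dosage over high dosage birds, of all 12839 tested genes in the order of the deposited table; red points are the 485 genes of the 15 shifted runs and grey points all other tested genes. The shifted runs form narrow columns reaching from about 0 down to below -1, while the other genes lie around 0 along the whole table.

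The shifted runs held 15 to 58 tested genes each and 485 in all, 3.78% of the genes tested. They contained 150 of the 186 separated genes (80.6%). A further 35 lay in 26 runs too short for the count of 10 tested genes, and 1 lay in a long run whose median was near 0. Bird by bird, the median over a run's genes put every low dosage bird below every high dosage bird of its batch, in both batches, for 14 of the 15 shifted runs, and in 1 batch for the remaining run of 16 genes. None of the other 302 long runs was lower in this way and none was higher. The shifted runs were chosen by their fold change in these same birds. Both counts therefore follow largely from that choice and are a description. The run with the largest shift, of 18 tested genes, had scores of -0.84 to -0.63 in low dosage birds and -0.09 to 0.07 in high dosage birds. The run with the smallest shift, of 17 tested genes, had scores of -0.51 to -0.19 in low dosage birds and -0.17 to 0.14 in high dosage birds.

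Within the shifted runs the genes were far from uniform. Taking all 485 tested genes, separated or not, the median log2 fold change was -0.56, a ratio of 0.679, and the middle 50% spanned ratios of 0.540 to 0.818. The 335 run genes that were not separated had a median ratio of 0.759. The genes fell into all bands of fold change. At or below -1 there were 54 genes (11.1%), from -1 to -0.75 there were 133 (27.4%), from -0.75 to -0.5 there were 85 (17.5%), from -0.5 to -0.25 there were 109 (22.5%), and from -0.25 to 0 there were 65 (13.4%). The remaining 39 genes (8.04%) were at 0 or above. The fullest band was the one from -1 to -0.75. Outside the shifted runs 0.283% of the 12354 genes were at or below -1 and 57.2% were above 0.

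**Figure D3:**
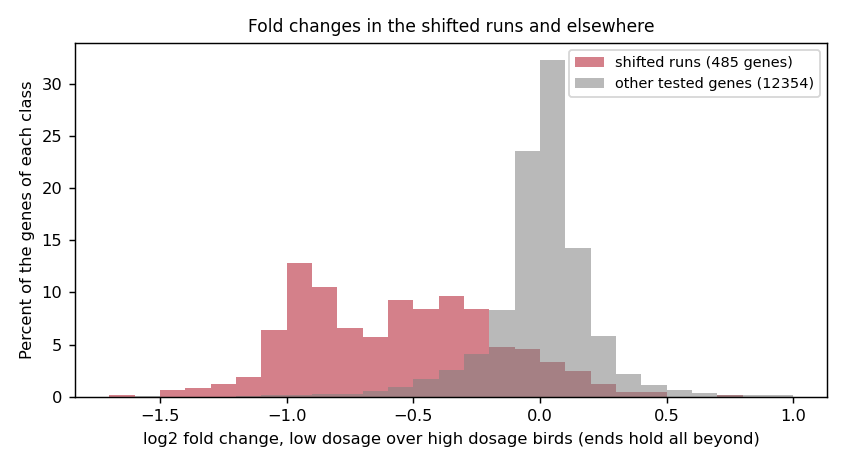
Distribution of the log2 fold change, low dosage over high dosage birds, in percent of the 485 genes of the shifted runs (red) and of the 12354 other tested genes (grey). The red distribution is broad, from below -1 to above 0 with its main peak just above -1, and the grey one is narrow around 0.

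The median shift was similar for rare and abundant genes of the shifted runs. Divided into 3 classes by mean log2 CPM, the least abundant 161 genes had a median log2 fold change of -0.59, the middle 162 had -0.52 and the most abundant 162 had -0.59. The share of genes in which the sets did not overlap went with abundance, at 11.8%, 37.0% and 43.8% in the same classes. All 485 genes took 2.41 to 3.46% of the counts of low dosage birds and 3.72 to 4.76% of the counts of high dosage birds.

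The separated gene with the largest fold change among those at 1 log2 CPM or more was A306_00010560. It ranged from 2.47 to 5.92 CPM in low dosage birds, with a median of 4.05 CPM, and from 6.61 to 16.0 CPM in high dosage birds, with a median of 10.8 CPM. The sets did not overlap, also with the batches pooled, and each library held at least 40 counts of the gene. Its log2 fold change was -1.40 ± 0.17 (SE of the fit), a ratio of 0.378.

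The most abundant separated gene was A306_00012945. It ranged from 1035 to 2485 CPM in low dosage birds, with a median of 1913 CPM, and from 1962 to 5161 CPM in high dosage birds, with a median of 2865 CPM. Pooled over batches the sets overlapped, but within batch 2 the low dosage birds ended at 1913 CPM and the high dosage birds began at 1962 CPM, and within batch 1 the low dosage birds ended at 2485 CPM and the high dosage birds began at 3842 CPM. Its log2 fold change was -0.92 ± 0.15 (SE), a ratio of 0.530. The gene was also lower in batch 2 than in batch 1 at equal set and phenotype (log2 difference -0.69 ± 0.15, SE; edgeR quasi-likelihood test, adjusted p = 9.46e-04). This p-value is too small by an unknown amount, because the set term in the model was read from these counts.

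The 1 gene separated in the other direction, A306_00002310, differed mildly. It ranged from 27.6 to 42.3 CPM in low dosage birds, with a median of 32.2 CPM, and from 20.1 to 32.1 CPM in high dosage birds, with a median of 29.8 CPM. The batches shifted it as well, and pooled over batches the sets overlapped. Its log2 fold change was 0.31 ± 0.09 (SE), and it was in no shifted run. With DESeq2 size factors in place of TMM the sets overlapped within a batch and no gene was separated upward. No gene of the table was counted in all low dosage birds and in none of the high dosage birds, or the reverse, among 15185 genes with any count.

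**Figure D4:**
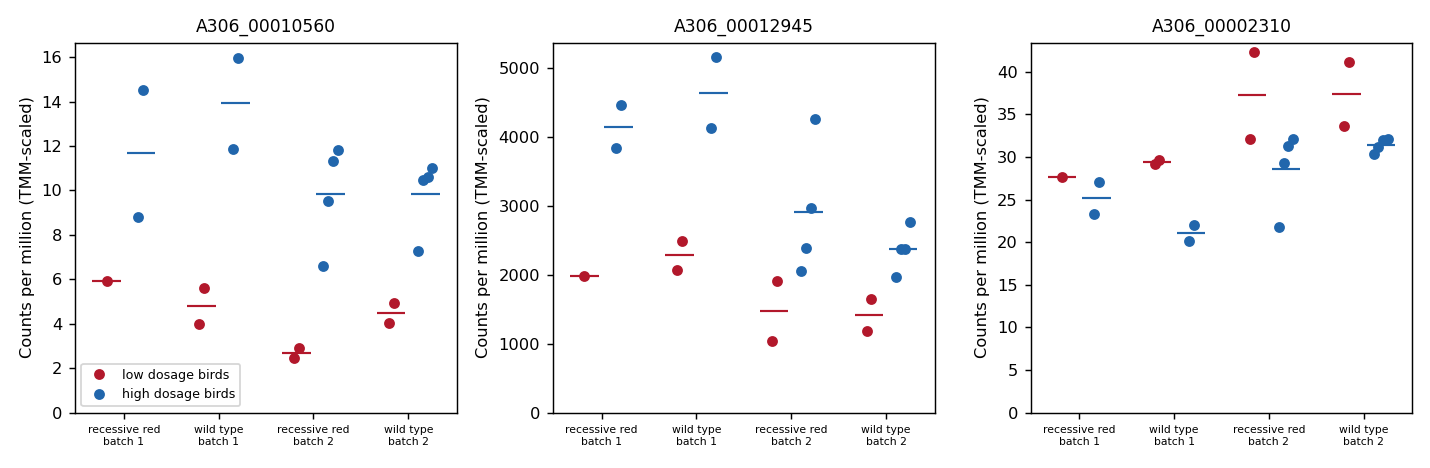
TMM-scaled CPM of 3 genes in each bird, low dosage birds (red) left of high dosage birds (blue) within each phenotype and batch, with lines at the means. The red points lie below the blue points of their batch for A306_00010560 and A306_00012945, and above them for A306_00002310, where the distance is small.

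The median difference between the sets was close in recessive red and in wild-type birds. Fitted separately, with no bird in common, the 186 separated genes had a median log2 fold change of -0.93 in recessive red birds (3 low dosage against 6 high dosage) and -0.88 in wild-type birds (4 against 6), and all 186 were below 0 in both. For the 485 genes of the shifted runs the medians were -0.60 in recessive red and -0.54 in wild-type birds, 445 genes were below 0 in recessive red and 435 in wild-type birds, and 435 genes had the same sign in both. The size of a gene's shift was also alike in part. Across the 485 genes, which are not independent replicates, the fold changes had a Pearson r of 0.61. The 12354 other genes, mostly left with little set difference by the choice of the runs, had an r of 0.10. The contrast between these r values follows in part from that choice. The separated genes and the shifted runs were chosen in the same birds, so that the signs of the separated genes are fixed by that choice and the values of the runs are a description.

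The test of the difference itself, the interaction of phenotype and set, called 0 of the 12839 genes (0%; edgeR quasi-likelihood test), and DESeq2 also called 0. Of all genes 303 (2.36%) had an unadjusted p under 0.05, of the 186 separated genes 5 (2.69%) and of the 485 run genes 11 (2.27%). Each batch holds both phenotypes, so separation within each batch also limits how far the set difference can vary with phenotype. That choice can lower the share of small p-values among the separated genes, which was close to the share of all genes. Over all genes the share was also below the threshold of 0.05, so small p-values were few throughout. For a separated gene the 95% interval of the interaction, not adjusted for the number of genes, reached a median of 0.40 log2 units to each side. The calls were adjusted over all 12839 genes, so that larger changes of the ratio between phenotypes could also go uncalled. Without the 3 e2 birds 1 gene was called.

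**Figure D5:**
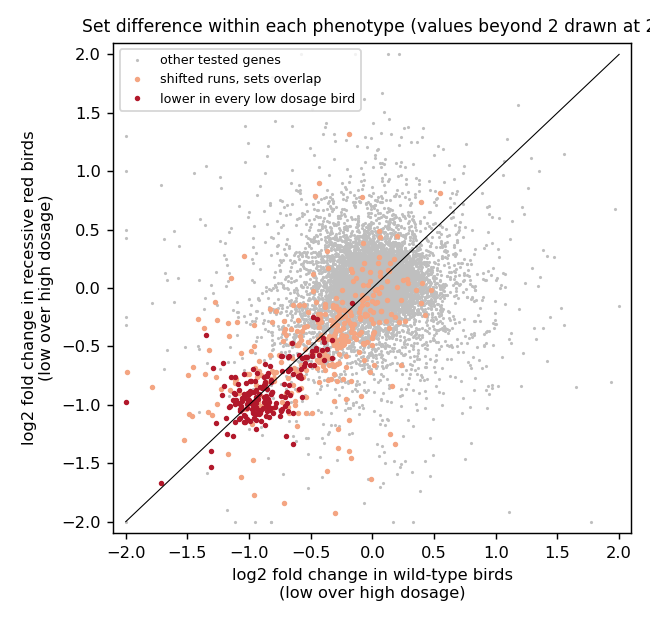
Log2 fold change, low dosage over high dosage birds, in wild-type birds (horizontal axis) and recessive red birds (vertical axis), fitted with no bird in common; dark red points are the 186 separated genes, light red points the other genes of the shifted runs and grey points the other tested genes. The separated genes lie around -0.9 on both axes near the diagonal, and the grey points form a round cloud around 0.

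The medians were also close between the batches. The 186 separated genes had a median log2 fold change of -0.96 in batch 2 (4 low dosage against 8 high dosage birds) and -0.85 in batch 1 (3 against 4), and the 485 genes of the shifted runs had medians of -0.57 and -0.56 in the same order. In the runs 449 genes were below 0 in batch 2 and 433 in batch 1, and the Pearson r across genes was 0.62, against 0.06 over the genes outside. This contrast, too, follows in part from the choice of the runs by their fold change. The interaction of batch and set called 0 of 12839 genes (0%; edgeR quasi-likelihood test; 0 also by DESeq2), with 514 genes (4.00%) at an unadjusted p under 0.05, among them 4 of the 186 separated genes. The separated genes were required to be lower in both batches, so that their signs, and in part the closeness of their medians and the few small p-values of the interaction among them, follow from that choice. In batch 2 alone 1.75% of the genes tested were lower in every low dosage bird and 0.109% were higher, and 82.7% of the lower ones were among the 186. In batch 1 alone, where 3 birds meet 4, separation ran both ways, with 4.87% of the genes lower and 3.33% higher, and 29.8% of the lower ones were among the 186. The genes chosen in batch 1, the shared 186 included, had smaller medians in the birds of batch 2, at -0.42 in recessive red and -0.33 in wild-type birds. The genes chosen in batch 2, the shared 186 included, had medians of -0.80 in recessive red and -0.78 in wild-type birds of batch 1. The shared 186 were required to be lower in both batches, so that these medians follow in part from that choice.

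By genotype, the scores of the 186 separated genes overlapped in the high dosage set, and the single birds of the low dosage set stood as follows. In the low dosage set, the e2 bird of batch 2 had the lowest score at -1.05 and the e1 bird of batch 2 the highest at -0.78, with the wild-type birds of batch 2 between them at -0.96 and -0.89, the e1 bird of batch 1 at -0.85 and the wild-type birds of batch 1 at -0.86 and -0.79. In the high dosage set, e2 birds stood at -0.05 and 0.12, e1 birds between -0.03 and 0.05, homozygous wild-type birds between -0.04 and 0.03, and the heterozygote at 0.01. With 1 or 2 birds of a genotype in the low dosage set, differences between genotypes were not tested.

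The labels also allow a test of recessive red against wild type at the separated genes. With batch and set as terms, 543 of 12839 genes differed between the phenotypes (4.23%; 329 or 2.56% lower and 214 or 1.67% higher in recessive red; edgeR quasi-likelihood test). Of the 186 separated genes 2 were among them (1.08%), and of the 485 run genes 29 (5.98%), 17 lower and 12 higher. The separated genes had a median log2 fold change of 0.02, recessive red over wild type, against 0.01 over all genes. In the authors' deposited table, which compares the phenotypes, 0 of the 186 separated genes and 25 of the 485 run genes (5.15%) had an adjusted p under 0.05, against 6.11% of all genes with an adjusted p. Separation asked every low dosage bird of both phenotypes to lie below every high dosage bird of its batch. A gene with a large phenotype difference could therefore hardly be separated. The low shares of called genes among the 186 follow at least in part from that choice, and no independence of phenotype is read from them.

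The phenotype comparison was also fitted with the set left out of the model. Without the set term 542 genes were called (4.22%; 331 or 2.58% lower and 211 or 1.64% higher in recessive red), of which 513 were also called with it. Another 30 were gained with the term and 29 were lost, 0 genes changed sign, and the fold changes of called genes moved by a median of 0.01 log2 units. Of the 30 gained genes 8 lay in the shifted runs, which hold 3.78% of the genes tested. Among the gained genes 2 were separated genes, which make up 1.45% of the genes tested. Of the 29 lost genes 0 were either. Most of the changed calls lay at other genes, but the gained calls were more frequent in the runs than the runs' share of genes. The runs were chosen by their fold change between the sets, so that this excess follows at least in part from that choice. With the term the standard error of the phenotype difference was 0.482 times its size without the term at the median separated gene, 0.780 times at the median run gene and 1.01 times outside the runs. Because the set was read from these counts, its term fits the separated genes closely by choice, and their p-values in such models are too small by an unknown amount.

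The 2 separated genes called between phenotypes, named here after their values were seen, differed less by phenotype than by set. They were chosen for separating the sets, so that the larger set difference follows at least in part from that choice. Both were called only with the set term, which fits such genes closely by choice. Their adjusted p-values with that term, also with birds left out, are too small by an unknown amount. A306_00009858 stood at -0.35 ± 0.09 (log2, recessive red over wild type, SE; adjusted p = 0.0214 by edgeR) and was not called without the set term (adjusted p = 0.494). Between the sets its ratio was 0.530, with 62.0 to 107 CPM in low dosage birds and 126 to 226 CPM in high dosage birds. A306_00009886 had a phenotype difference of 0.24 ± 0.06 (SE; edgeR, adjusted p = 0.0387; 0.436 without the set term) and a set ratio of 0.512, with 36.4 to 58.3 CPM in low dosage birds and 66.9 to 134 CPM in high dosage birds. Leaving out birds in turn, the adjusted p ranged from 0.0135 to 0.0547 for A306_00009858, where 1 of 19 fits, without wild-type bird 20, lost the call, and from 0.0209 to 0.0858 for A306_00009886, which lost it in 11 of 19 fits, with the highest value also without wild-type bird 20. Without the 3 e2 birds both lost the call (adjusted p = 0.0576 for A306_00009858 and 0.0954 for A306_00009886 by edgeR).

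The gene with the largest fitted fall in recessive red birds of all genes tested, A306_00007909, belongs to a shifted run and is named after its values were seen. In the recessive red birds it was low, with 1.44 to 7.26 CPM in the low dosage and 0.965 to 22.6 CPM in the high dosage birds. In wild-type birds it stood at 5508, 8032, 2823 and 5347 CPM in the low dosage set and at 7313, 5739, 7769, 7916, 5090 and 5055 CPM in the high dosage set. The sets overlapped in wild type, and the fitted set difference, given without a test, was -0.35 ± 0.43 (SE). The phenotype difference with the set as a term was -10.27 ± 0.59 (SE; edgeR, adjusted p = 1.35e-09).

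Between the batches, with phenotype and set as terms, 5333 of 12839 genes differed (41.5%; 20.9% lower and 20.6% higher in batch 2; edgeR quasi-likelihood test). Of the 186 separated genes 94 differed (50.5%), 70 lower and 24 higher in batch 2, and of the 485 run genes 198 differed (40.8%). By their choice the sets stayed apart within each batch at the separated genes. The set term fits them closely for the same reason, so that their p-values between batches are too small by an unknown amount. The share of the variance that goes with the set was not measured. None of the first 10 principal components of the log2 CPM values separated the sets in both batches. The fourth, with 7.73% of the variance, separated them in 1 batch. Among the 100 genes with the largest weights the fifth component, with 5.64% of the variance, held the most run genes of these 10 components, at 21. The other components held 2 to 9, and run genes make up 3.78% of the genes tested.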

How the data were processed

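The authors deposited a table of raw counts per gene for 19 birds with 15392 rows (207 at 0 in every bird), whose identifiers are headed Cliv2.1 per the file headers. Beside them stand the mean normalized count, log2 fold change, standard error, test score, p-value and adjusted p of a DESeq2 comparison by the authors, per the file headers; the submitters' processing notes name DESeq2 without a version. Aligner, counting program and strand setting: not given in the sources used here. A RefSeq list (assembly bColLiv1.pat.W.v2, 22830 genes) shared 0 identifiers with the table, so no names, positions or sequences are given, and the marker lists planned by name could not be tested.

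Total counts were 13559606 to 23168538 per bird. The filterByExpr function of edgeR 4.0.16 (R 4.3.3) left 12839 genes, which were scaled by TMM, and tested with edgeR's quasi-likelihood test at a Benjamini-Hochberg adjusted p under 0.05. Log2 CPM used a prior count of 2. The heterozygote counted as wild type. Standard errors are the fold change divided by the square root of F. Those of set differences are a description and stand for no test. At separated genes they are too small by an unknown amount, because birds and genes were chosen by this difference. DESeq2 (version 1.42.0) was an alternative. The scripts were tested on simulated data. Each bird is 1 replicate. The p-values of the gene tests rest on the spread between birds, which the set term narrows by choice at the separated genes. Fisher's exact test rests on counts of birds.

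The members of the sets, the lists and the tests were chosen with earlier results of these data known. Named genes were, in each direction, the separated gene with the largest fold change and the most abundant one, at 1 log2 CPM or more; upward 1 gene filled both places. Genes named outside this rule were chosen after their values were seen. Library measures were compared by exact permutation.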

Additional observations from a re-analysis of the deposited data

Results flagged for a closer look

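Single birds were checked against their group 48 times. The groups were the low dosage birds of both batches, those of batch 2 alone, and the high dosage birds of each batch. The low dosage groups overlap, so the checks are not independent. In these checks 4 values stood apart from the others of their group, all of recessive red bird 5 among the 8 high dosage birds of batch 2. Chance flags about 1 in 20 such groups. This bird had the highest dosage score, 0.12, and the highest share of counts in the separated genes, 1.72%. Among these 8 birds, but not among all birds, it also had the highest share of counts in the 100 most abundant genes, 27.2%. The same holds for its level of A306_00002310, 4.45 log2 CPM, the lowest of the 8. The part of library composition in its score was not tested. Without this bird the separated genes had a median log2 fold change of -0.90, against -0.92 with all birds.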

How the results depend on the processing

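No fold change reversed its sign under any alternative. The separated genes and shifted runs were chosen anew as lower under each scaling, filter, definition or subset of birds, so that the sign of their medians there was fixed. The count of 186 separated genes lay between 133 and 210 over other scalings, filters, definitions and subsets of birds, and between 186 and 225 with single birds left out. Leaving out birds loosens the demand of no overlap. Apart from changes of scaling and filter the count could then only stay or rise. Their median log2 fold change lay between -0.97 and -0.88 with single birds left out. Over other scalings, filters, tests and subsets of birds it lay between -0.92 and -0.85, the latter without the 3 e2 birds. The 15 shifted runs, an analysis chosen after seeing the data, became 25 with a minimum of 5 tested genes, 10 with a minimum of 20, 17 with no filter on low counts, and 15 or 16 without single birds. The 1 gene separated upward became 0 with DESeq2 size factors, no filter, a minimum log2 fold change of 0.5 or pooled batches, 8 without the e2 birds, and 0 to 6 without single birds. Genes chosen by separation in the other batch had medians of -0.42 in recessive red and -0.33 in wild-type birds of batch 2, where the list came from only 7 birds. This list included the 186 separated genes, which were chosen in batch 2 as well. Its medians therefore follow in part from that choice. The 543 phenotype genes became 850 with DESeq2 and 380 to 927 without single birds, the highest without wild-type bird 2 of batch 1. Without the set term the 542 became 831 and 383 to 855. The interaction of phenotype and set gave 1 gene without the e2 birds. Bird numbers 1, 3 and 4 recur in both phenotypes of batch 1. With the number as a replicate block over these 6 birds, 5 genes were called with the set term and 46 without, from fewer birds. Only the birds numbered 4 fell in different sets. The set term therefore rested on that number, and the phenotype difference beside it on numbers 1 and 3. Deviations of same-numbered birds correlated at -0.18, -0.07 and -0.12, so the numbers were not taken to pair birds.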

Other observations

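The largest fitted increase in the low dosage birds, a log2 fold change of 2.22 ± 0.89 (SE) for A306_00008195, rested on 1 bird and is named after its value was seen. Recessive red bird 6, of the low dosage set, had 402 counts of this gene (23.9 CPM). The other 8 recessive red birds had 0 to 4 counts each, and the 10 wild-type birds had 97 to 292 counts. With phenotype and set in the model its phenotype difference was -3.24 ± 0.98 (SE; edgeR, adjusted p = 0.0687). Recessive red bird 6 was not unusual in A306_00007909, at 7.26 CPM, where the lowest wild-type bird had 2823 CPM.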
